A study of Mus musculus with 4 samples.

Results

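The genes described here, 36 in all, encode the machinery that copies DNA in S phase and its closest control. They were taken by name and fall into 7 roles: 10 genes of origin licensing, 4 of helicase activation, 6 of primase and polymerases, 7 of the sliding clamp, its loader and the joining of Okazaki fragments, 4 of nucleotide supply, 3 of the passage from G1 to S phase, and 2 of chromatin assembly behind the fork. All 36 were found in the deposited table, which held a transcript of 20832 protein-coding genes, and all 36 reached 1 RPKM in at least 1 library, as did 10744 of the protein-coding genes. RPKM is the number of reads on a transcript, scaled to its length in kilobases and to the depth of the library.

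RNA-seq of total RNA was performed on mouse embryonic fibroblasts (MEF), fibroblasts grown from the body of C57BL/6 embryos of embryonic day 15.5 and immortalised with SV40. There were 4 libraries, 1 per condition: *Hmga2*+/+ Ctrl, *Hmga2*+/+ TGFB1, *Hmga2*-/- Ctrl and *Hmga2*-/- TGFB1. Both genotypes were kept overnight in medium with 1% FCS, and TGFB1-treated cells then received 10 ng/ml of human recombinant TGFB1 for 24 h, while Ctrl cells received water. One label writes the knockout genotype as Hmga-/-, whereas the title gives *Hmga2*-/-. How many embryos or lines stand behind each genotype and whether duplicate cultures were pooled are not given in the sources used here, so a difference between genotypes cannot be told apart from a difference between immortalised lines.

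Origins are licensed in G1, when the origin recognition complex, CDC6 and CDT1 load the MCM helicase onto DNA. CDC45, the GINS complex and MCM10 then turn the helicase on, and primase, the replicative polymerases, the clamp PCNA, the nuclease FEN1 and the ligase LIG1 copy the strands. Most of these genes are transcribed under E2F factors, which are restrained by the pocket proteins RB1, RBL1 and RBL2, and the large T antigen of SV40 is known to bind those pocket proteins. TGFB1 is known for holding many normal cell types in G1, with higher *Cdkn1a* and *Cdkn2b* and lower *Myc*, while fibroblasts are among the cells in which it also drives matrix genes.

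Promoters of 3 members are shown because they stand for the 3 patterns described here: a gene that stayed level (*Mcm3*), the gene that was lower with TGFB1 in both genotypes (*Tk1*), and the gene that was higher with TGFB1 mainly in *Hmga2*-/- MEF (*Rrm2*). The sequences are from RefSeq on GRCm38.p6, run 5′ to 3′ on the strand of the gene, and cover the 250 bases before the annotated start and the first 30 bases after it. They lie at chr1:20820283-20820562 on the minus strand (*Mcm3*), chr11:117825985-117826264 on the minus strand (*Tk1*) and chr12:24708004-24708283 on the plus strand (*Rrm2*). Capitals mark matches to CCAAT or TTTNNCGC on either strand.
Mcm3: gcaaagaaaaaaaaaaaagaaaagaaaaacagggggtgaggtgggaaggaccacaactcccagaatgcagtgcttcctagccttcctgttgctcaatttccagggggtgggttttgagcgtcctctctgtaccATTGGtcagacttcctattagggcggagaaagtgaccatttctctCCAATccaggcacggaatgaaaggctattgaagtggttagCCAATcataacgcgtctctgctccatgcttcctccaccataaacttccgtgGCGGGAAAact
Tk1: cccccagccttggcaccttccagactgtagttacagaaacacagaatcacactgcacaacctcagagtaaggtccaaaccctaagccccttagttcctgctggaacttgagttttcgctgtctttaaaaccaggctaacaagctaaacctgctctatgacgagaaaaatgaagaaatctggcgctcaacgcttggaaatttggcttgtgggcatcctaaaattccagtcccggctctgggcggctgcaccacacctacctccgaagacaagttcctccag
Rrm2: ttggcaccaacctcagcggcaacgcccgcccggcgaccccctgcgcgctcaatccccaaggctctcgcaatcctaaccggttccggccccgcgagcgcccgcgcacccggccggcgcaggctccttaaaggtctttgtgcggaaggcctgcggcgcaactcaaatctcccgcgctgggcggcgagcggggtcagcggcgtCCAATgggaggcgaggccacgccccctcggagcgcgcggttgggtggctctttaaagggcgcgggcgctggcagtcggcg

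The windows of *Mcm3*, *Tk1* and *Rrm2* differed in these letters. The *Mcm3* window as printed held CCAAT at 3 places and 1 match to the E2F-like motif TTTNNCGC, which starts 20 bases after the annotated start of transcription. A further match to TTTNNCGC begins 39 bases after that start, past the bases printed. The *Rrm2* window held CCAAT once, 50 bases before the start, and had 72.1% G and C against 50% in *Tk1* and 48.2% in *Mcm3*. The *Tk1* window held none of the motifs searched, which says only that these letters are not in this window.

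RefSeq windows of 300 bases, from 250 before to 50 after the start, were at hand for 29 of the 36 members. TTTNNCGC, searched on both strands, was in at least 1 window of 12 of the 29 members (41.4%) and in 5.17% of 32851 windows of all genes. CCAAT was present for 16 of 29 members (55.2%) and in 37.4% of all windows. TTTGAA, the letters of a CHR-like element known from genes of late cell cycle, was present for 3 of 29 members (10.3%) and in 17.9% of all windows. A member with several windows was counted if any held the motif, matches of different motifs may overlap, and a match is not a bound site. The 12 members with TTTNNCGC were *Cdc6*, *Cdt1*, *Lig1*, *Mcm3*, *Mcm5*, *Mcm6*, *Mcm7*, *Orc1*, *Pola1*, *Pold1*, *Rfc3* and *Tyms*, which includes steady genes and *Lig1*.

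The libraries held between 56140000 and 57300000 mapped reads, as derived from the RPKM, so that 3 reads on a transcript of 1 kb correspond to about 0.0524 to 0.0534 RPKM. The members had between 472 and 17084 reads per library. *Hmga2* had 14.8 and 40.7 RPKM in the *Hmga2*+/+ Ctrl and TGFB1 libraries and 0 reads in both *Hmga2*-/- libraries. All 8 fibroblast markers reached 1 RPKM, with a summed level of 1874 to 2263 RPKM per library. Of the markers of other cells, 0 of 4 epithelial and 0 of 3 skeletal muscle markers reached 1 RPKM (*Myod1* and *Myog* had 0 reads), 1 of 3 endothelial (*Kdr*, with a summed level of 1.14 and 1.47 RPKM in Ctrl and 4.53 and 7.46 RPKM with TGFB1), 1 of 3 leukocyte (summed 1.26 to 1.63 RPKM) and 2 of 3 neural markers (summed 1.996 to 6.01 RPKM). Their part in the results was not tested.

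Since each condition had a single library, differences could not be checked against replicates, and p-values are not given. Each log2 change below carries a 95% interval that covers counting error only, and a change of at least 1.5-fold, the fold that the study's methods use, counts as higher or lower. In bulk RNA, fewer cells in S phase and less RNA per such cell cannot be told apart.

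The replication genes stayed nearly level over all 4 libraries. In 21 of 36 (58.3%) the highest library was under 1.25-fold of the lowest, compared with 29.9% of the 10744 protein-coding genes and 36% of the 6732 genes whose mean level was at or above that of the lowest member, 4.88 RPKM. The median ratio of the highest to the lowest library was 1.18 for the members and 1.40 for all genes tested. *Pola1*, the catalytic subunit of the polymerase that starts each strand, was the most even with a ratio of 1.04, and *Tk1* the least even with 1.79. By role, the steady genes were 8 of 10 in licensing, 5 of 6 among primase and polymerases, 3 of 7 for clamp and joining, 2 of 4 in helicase activation, 2 of 4 in nucleotide supply, 1 of 2 in chromatin assembly and 0 of 3 in G1/S control. The limit of 1.25-fold was set after the values were seen. At 1.5-fold 33 of 36 members were under the limit, but so was the median of all genes tested, 1.40. The share of all genes under 1.5-fold was not counted.

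**Figure D1:**
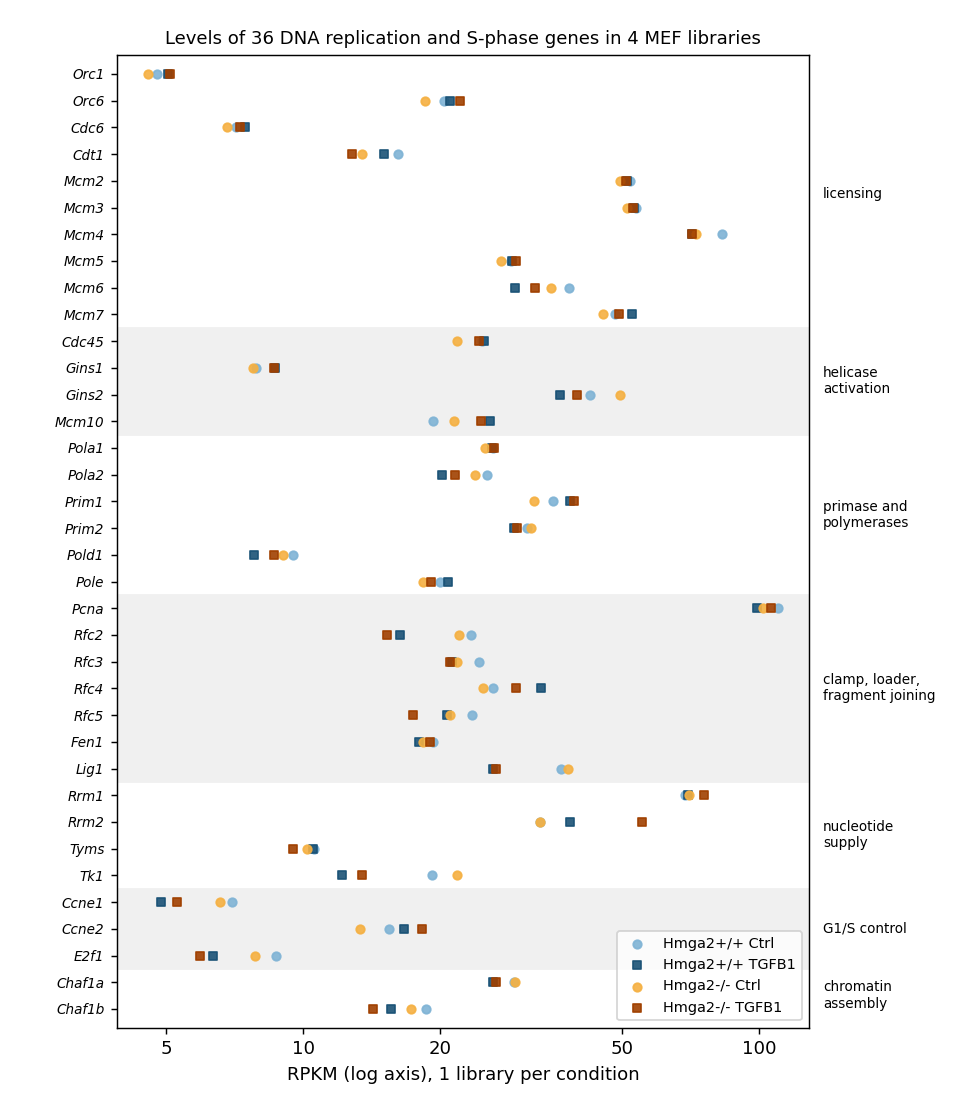
RPKM of the 36 genes (log axis) in the 4 MEF libraries, with 1 point per library, ordered by role. The 4 points of most genes fall on or near each other, from *Orc1* at 4.58 to 5.09 RPKM up to *Pcna* at 98.8 to 110 RPKM, while *Tk1*, *Rrm2*, *Lig1* and *Rfc2* spread out.

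The members' changes with TGFB1 were small in both genotypes. In *Hmga2*+/+ MEF 1 of 36 (*Tk1*) was at least 1.5-fold lower and 0 were at least 1.5-fold higher with TGFB1, while among all genes tested 16.8% were lower and 11.4% were higher. In *Hmga2*-/- MEF 1 of 36 (*Tk1*) was lower and 1 (*Rrm2*) was higher, while among all genes 15.2% were lower and 13.1% were higher. The median log2 change of the members was -0.060 in *Hmga2*+/+ and 0.046 in *Hmga2*-/- MEF, beside -0.047 and 0.012 over all genes. The median size of the log2 change, without its sign, was 0.15 and 0.14 for the members and 0.34 and 0.34 for all genes. Counting intervals lay below 0 for 18 and above 0 for 7 members in *Hmga2*+/+ MEF, where they did for 42.4% and 36.3% of all genes. In *Hmga2*-/- MEF they lay below 0 for 13 and above 0 for 17 members, and for 38.2% and 40.5% of all genes. With libraries rescaled by the median ratio of 9749 genes the counts were 16 below and 8 above in *Hmga2*+/+, and 15 below and 10 above in *Hmga2*-/- MEF, so the balance in *Hmga2*-/- MEF turned with the scaling. Shares of all genes were not recounted in rescaled libraries, here or below.

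**Figure D2:**
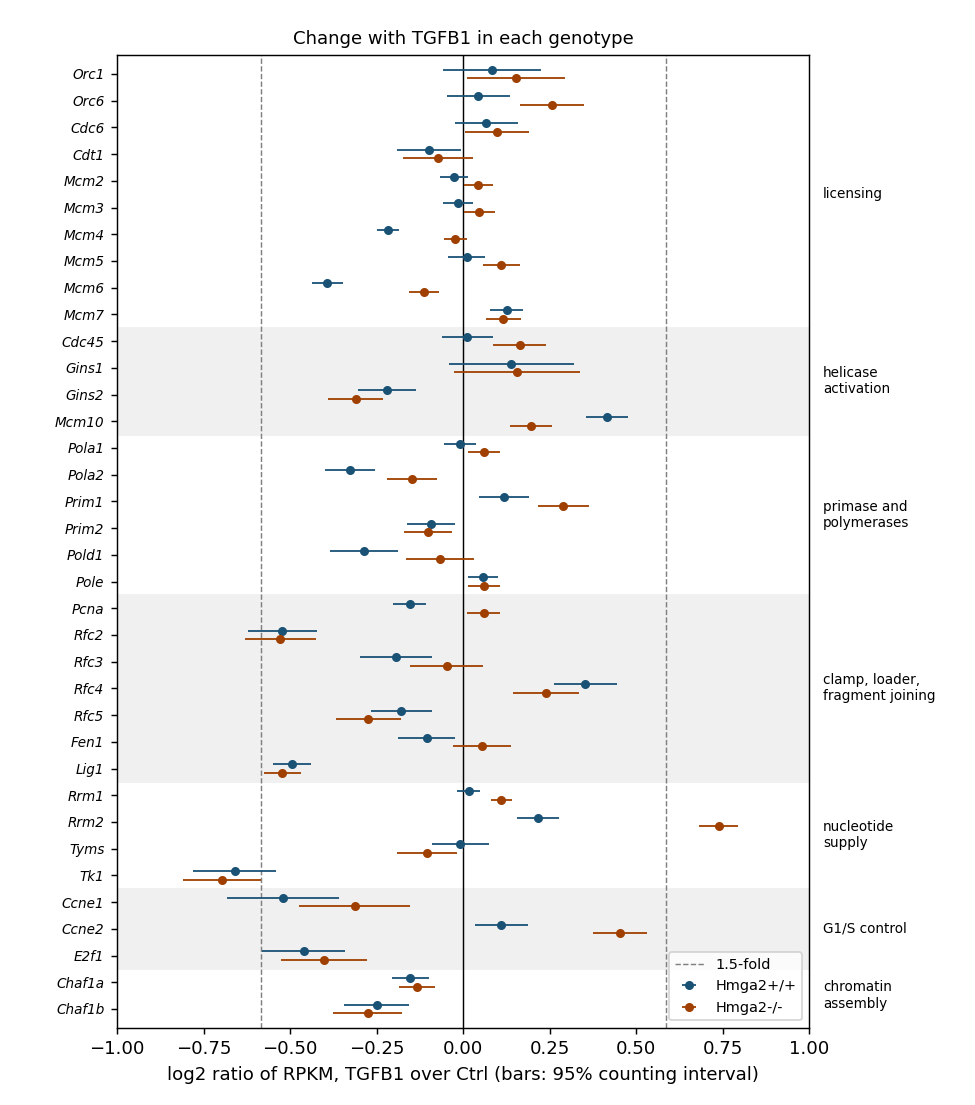
log2 ratio of RPKM, TGFB1 over Ctrl, for each gene in *Hmga2*+/+ (blue) and *Hmga2*-/- (brown) MEF, with bars for the 95% counting interval and dashed lines at 1.5-fold. Points lie between the dashed lines except *Tk1* in both genotypes and *Rrm2* in *Hmga2*-/- MEF.

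Licensing genes had small changes in both directions. The genes for the 6 subunits of the MCM helicase were led by *Mcm4* and ended with *Mcm5* in every library, with a ratio between those 2 of 2.91 and 2.48 in *Hmga2*+/+ Ctrl and TGFB1 and of 2.67 and 2.43 in *Hmga2*-/- Ctrl and TGFB1. *Mcm4* (chr16:15623897-15637400, minus strand) had 82.96 RPKM in the *Hmga2*+/+ Ctrl library and 71.4, 72.6 and 71.5 RPKM in *Hmga2*+/+ TGFB1, *Hmga2*-/- Ctrl and *Hmga2*-/- TGFB1. Its untreated *Hmga2*+/+ library thus stood above the other 3, which lay close together. Its log2 change with TGFB1 was -0.22 (95% interval -0.25 to -0.19) in *Hmga2*+/+ and -0.023 (-0.056 to 0.010) in *Hmga2*-/- MEF.

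*Mcm6* followed with 38.2 and 29.1 RPKM in *Hmga2*+/+ Ctrl and TGFB1, and 34.9 and 32.3 RPKM in *Hmga2*-/- Ctrl and TGFB1. The log2 change was -0.39 (-0.44 to -0.35) in *Hmga2*+/+ and -0.11 (-0.16 to -0.070) in *Hmga2*-/- MEF, and in *Hmga2*+/+ MEF it was the lowest of the licensing genes. The change in *Hmga2*-/- MEF was -0.069 with all transcripts of *Mcm6* summed and -0.023 with its transcript of the highest mean RPKM, and *Cdt1* was then lower, at -0.081 and -0.073. The other 4 MCM genes were flatter. *Mcm2* had 52.2, 51.3, 49.5 and 51.1 RPKM in *Hmga2*+/+ Ctrl, *Hmga2*+/+ TGFB1, *Hmga2*-/- Ctrl and *Hmga2*-/- TGFB1, the order used from here on. Its log2 changes with TGFB1 were -0.027 (-0.068 to 0.013) in *Hmga2*+/+ and 0.044 (0.0031 to 0.085) in *Hmga2*-/- MEF. *Mcm3*, whose promoter is printed above, had 53.7, 53.1, 51.3 and 53.0 RPKM, with log2 changes of -0.015 (-0.058 to 0.028) and 0.047 (0.0035 to 0.091). *Mcm5* had 28.5, 28.7, 27.2 and 29.4 RPKM, with log2 changes of 0.0098 (-0.044 to 0.064) in *Hmga2*+/+ and 0.11 (0.057 to 0.17) in *Hmga2*-/- MEF. *Mcm7* had 48.2, 52.6, 45.6 and 49.4 RPKM, and its log2 change was close in the genotypes at 0.13 and 0.12.

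The loading factors varied as little. *Orc1*, the ATPase subunit of the origin recognition complex, was the lowest of all 36 genes with 4.77, 5.06, 4.58 and 5.09 RPKM. *Orc6*, another subunit of this complex, had 20.4, 21.0, 18.5 and 22.1 RPKM, with a log2 change of 0.044 (-0.048 to 0.14) in *Hmga2*+/+ and 0.26 (0.16 to 0.35) in *Hmga2*-/- MEF. *Cdc6* had 7.11, 7.45, 6.80 and 7.27 RPKM. *Cdt1* had 16.1, 15.0, 13.5 and 12.8 RPKM, and both *Hmga2*-/- libraries were below both *Hmga2*+/+ libraries. *Cdt1* lies inside *Gm20388*, an annotated protein-coding gene on the same strand, so its reads may be shared.

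Helicase activation held the highest change with TGFB1 in *Hmga2*+/+ MEF. *Mcm10*, which joins the helicase as it fires, had 19.3, 25.8, 21.4 and 24.6 RPKM, so both TGFB1 libraries were above both Ctrl libraries. Its log2 change was 0.42 (0.35 to 0.48) in *Hmga2*+/+ and 0.20 (0.14 to 0.26) in *Hmga2*-/- MEF. *Gins2*, a subunit of the GINS complex, had 42.6, 36.6, 49.5 and 39.9 RPKM, lower in both TGFB1 libraries than in both Ctrl libraries, with log2 changes of -0.22 (-0.30 to -0.14) and -0.31 (-0.39 to -0.23). *Gins1*, which encodes another subunit of the same complex, had 7.89, 8.69, 7.76 and 8.65 RPKM, and its intervals held 0 in both genotypes. *Cdc45* had 24.7, 24.9, 21.8 and 24.4 RPKM, with the *Hmga2*-/- Ctrl library the lowest. In the transcripts read, *Gins1* and *Gins2* thus had opposite signs although their products sit in 1 complex. The interval excluded 0 for *Gins2* and not for *Gins1*. The *Gins1* transcript with the highest mean RPKM had changes of -0.0072 in *Hmga2*+/+ and 0.18 in *Hmga2*-/- MEF.

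Primase and polymerase genes were mostly level. *Pola1* (chrX:93304766-93632155, minus strand) had 26.1, 26.0, 25.1 and 26.2 RPKM, and its log2 changes were -0.0086 (-0.054 to 0.037) and 0.061 (0.015 to 0.11). *Pola2*, the second subunit of the same polymerase, had 25.3, 20.2, 23.9 and 21.5 RPKM, with changes of -0.33 (-0.40 to -0.25) in *Hmga2*+/+ and -0.15 (-0.22 to -0.074) in *Hmga2*-/- MEF. *Prim1*, the catalytic primase subunit, had 35.4, 38.5, 32.1 and 39.3 RPKM, both TGFB1 libraries above both Ctrl libraries. *Prim2*, the large primase subunit, had 31.0, 29.0, 31.6 and 29.5 RPKM, in the opposite order. *Pold1*, the catalytic subunit of the polymerase of the lagging strand, was low at 9.51, 7.79, 9.01 and 8.61 RPKM. *Pole*, that of the leading strand, had 20.0, 20.8, 18.3 and 19.1 RPKM, and its transcript overlaps a small RNA gene and a processed pseudogene on the same strand.

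The clamp group held genes with larger changes. *Pcna* (chr2:132249286-132253180, minus strand), the clamp that tethers polymerases to DNA, was the highest of all 36 genes with 110, 98.8, 102 and 106 RPKM. Its log2 change was -0.15 (-0.20 to -0.11) in *Hmga2*+/+ and 0.059 (0.013 to 0.11) in *Hmga2*-/- MEF, on different sides of 0. The annotation holds 2 processed pseudogenes of *Pcna* and 1 of *Tyms*, so a share of reads between copies is uncertain for both genes.

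The 4 clamp loader genes of the list lay close together in Ctrl and apart with TGFB1. The highest was 1.11-fold of the lowest in *Hmga2*+/+ Ctrl and 1.18-fold in *Hmga2*-/- Ctrl, and 2.04-fold and 1.92-fold in the TGFB1 libraries of *Hmga2*+/+ and *Hmga2*-/- MEF. *Rfc4* was the highest in every library with 26.0, 33.3, 24.8 and 29.3 RPKM, and its log2 change was 0.35 (0.26 to 0.44) in *Hmga2*+/+ and 0.24 (0.14 to 0.33) in *Hmga2*-/- MEF. *Rfc2* (chr5:134582690-134598328, plus strand) had 23.4, 16.3, 22.01 and 15.3 RPKM, with changes of -0.52 (-0.62 to -0.42) and -0.53 (-0.63 to -0.43). Both TGFB1 libraries of *Rfc2* were below both Ctrl libraries, 1.44-fold lower in each genotype and so short of 1.5-fold. *Rfc3* had 24.3, 21.3, 21.7 and 21.0 RPKM, with log2 changes of -0.19 (-0.30 to -0.091) in *Hmga2*+/+ and -0.047 (-0.15 to 0.059) in *Hmga2*-/- MEF. *Rfc5* had 23.4, 20.7, 21.0 and 17.4 RPKM.

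*Lig1* (chr7:13277313-13311427, plus strand), the ligase that seals Okazaki fragments, had 36.8, 26.1, 38.0 and 26.5 RPKM. Its log2 changes of -0.49 (-0.55 to -0.44) and -0.52 (-0.58 to -0.47) were near those of *Rfc2*, and its TGFB1 libraries were 1.41-fold and 1.44-fold lower than Ctrl. The transcript of *Lig1* with the highest mean RPKM was past 1.5-fold in both genotypes, with changes of -0.61 and -0.71. *Fen1*, the nuclease that trims these fragments, had 19.3, 17.9, 18.3 and 19.0 RPKM, without this pattern in the transcript read.

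Nucleotide supply held the members that passed 1.5-fold. *Tk1* (chr11:117815519-117826014, minus strand), the thymidine kinase of the salvage pathway, had 19.2 RPKM in *Hmga2*+/+ Ctrl and 12.2 RPKM in *Hmga2*+/+ TGFB1, from 1462 and 944 reads, and 21.8 RPKM in *Hmga2*-/- Ctrl and 13.5 RPKM in *Hmga2*-/- TGFB1, from 1673 and 1039 reads. Both TGFB1 libraries were below both Ctrl libraries. *Tk1* fell 1.58-fold in *Hmga2*+/+ (log2 change -0.66, -0.78 to -0.54) and 1.62-fold in *Hmga2*-/- MEF (-0.70, -0.81 to -0.58), and both intervals reach to changes smaller than 1.5-fold.

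*Rrm2* (chr12:24708254-24714146, plus strand), the small subunit of ribonucleotide reductase and the one limited to S phase, had 33.1 and 38.5 RPKM in *Hmga2*+/+ Ctrl and TGFB1, from 4017 and 4767 reads. In *Hmga2*-/- Ctrl and TGFB1 it had 33.1 and 55.3 RPKM, from 4055 and 6804 reads. The 2 Ctrl libraries were level and the *Hmga2*-/- TGFB1 library stood above the other 3. *Rrm2* rose 1.67-fold in *Hmga2*-/- MEF (log2 change 0.74, 0.68 to 0.79), and its change in *Hmga2*+/+ MEF was 1.16-fold (0.22, 0.16 to 0.28). *Rrm1*, the large subunit of the same enzyme, had 69.0, 69.7, 70.2 and 75.8 RPKM, with changes of 0.016 (-0.017 to 0.048) and 0.11 (0.079 to 0.14). *Tyms*, the thymidylate synthase of the de novo pathway, had 10.6, 10.5, 10.2 and 9.48 RPKM, and its change in *Hmga2*+/+ MEF was -0.0077 (-0.091 to 0.075). In *Hmga2*-/- MEF it was -0.10 (-0.19 to -0.018), while the *Tyms* transcript with the highest mean RPKM was level there.

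Among the G1/S genes, the cyclin E genes had opposite signs. *Ccne1* had 6.98, 4.87, 6.57 and 5.29 RPKM, with log2 changes of -0.52 (-0.68 to -0.36) in *Hmga2*+/+ and -0.31 (-0.47 to -0.15) in *Hmga2*-/- MEF. *Ccne2* had 15.5, 16.7, 13.3 and 18.2 RPKM, with changes of 0.11 (0.035 to 0.19) and 0.45 (0.38 to 0.53). *Ccne1* was lower in both TGFB1 libraries than in both Ctrl libraries, and *Ccne2* was higher. *E2f1*, the transcription factor that drives many replication genes, had 8.73, 6.35, 7.85 and 5.94 RPKM, with changes of -0.46 (-0.58 to -0.34) and -0.40 (-0.53 to -0.28). Beside the lower *E2f1* level with TGFB1, *Tk1*, *Rfc2*, *Lig1* and *Ccne1* were lower in both genotypes. *Mcm10* and *Rfc4* were higher, and *Mcm2*, *Mcm3*, *Mcm5* and *Pola1* were nearly even. A link of these levels to *E2f1* was not tested.

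Chromatin assembly genes were lower by similar amounts in both genotypes. *Chaf1a*, the large subunit of chromatin assembly factor 1, had 28.9, 26.0, 29.1 and 26.5 RPKM. *Chaf1b*, its middle subunit, had 18.6, 15.6, 17.2 and 14.2 RPKM, with log2 changes of -0.25 (-0.34 to -0.16) and -0.28 (-0.37 to -0.18). In both genes each TGFB1 library was below each Ctrl library.

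Differences between the genotypes in untreated cells were small, for the members as for most genes tested. Under 1.25-fold were 36 of 36 members and 86.2% of all genes. The median size of the log2 ratio, without its sign, was 0.086 for the members and 0.118 for all genes. Between the Ctrl libraries 0 of 36 members were at least 1.5-fold lower and 0 at least 1.5-fold higher in *Hmga2*-/- MEF, where 1.64% and 2.37% of all genes were. The median log2 ratio of *Hmga2*-/- over *Hmga2*+/+ was -0.078, beside -0.015 over all genes, and 28 of 36 members (77.8%) were below 0, compared with 53.5% of all genes. Counting intervals lay below 0 for 19 and above 0 for 3 members, and for 25.9% and 23.2% of all genes. All 10 licensing genes were below 0, from -0.26 to -0.060. In rescaled libraries 28 of 36 members were below 0, with 15 intervals below 0 and 5 above 0. The same was not counted over all genes, so these counts have no rescaled share beside them.

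*Cdt1* had the lowest ratio in Ctrl at -0.26 (-0.35 to -0.16), followed by *Ccne2* at -0.22 (-0.30 to -0.13), *Mcm4* at -0.19 (-0.22 to -0.16) and *Cdc45* at -0.18 (-0.26 to -0.10). The highest were *Gins2* at 0.22 (0.14 to 0.29) and *Tk1* at 0.18 (0.080 to 0.28). *Rrm2*, *Chaf1a* and *Gins1* were the closest to equal, at 0.0016 (-0.062 to 0.065), 0.0092 (-0.043 to 0.061) and -0.024 (-0.21 to 0.16). The ratio of *Ccne2* rests on the transcript read, since it was -0.089 with all transcripts summed and -0.048 with the transcript of the highest mean RPKM. These ratios are of single libraries, and the size of each is smaller than the change of *Lig1* or *Rfc2* with TGFB1.

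Between the TGFB1 libraries 0 of 36 members were at least 1.5-fold lower and 0 at least 1.5-fold higher in *Hmga2*-/- MEF, where 1.98% and 3.12% of all genes were. The median size of the log2 ratio, without its sign, was 0.0925 for the members and 0.127 for all genes. The median log2 ratio was 0.011, beside 0.040 over all genes, and 16 of 36 members (44.4%) were below 0, as were 41.3% of all genes. Counting intervals lay below 0 for 8 and above 0 for 9 members, and for 19.0% and 31.9% of all genes. With rescaled libraries the median became -0.021 and 24 of 36 members were below 0, so the side on which the members lie depends on the scaling here. The rescaled share of all genes was not counted. *Rrm2* had the highest ratio at 0.52 (0.47 to 0.58), or 1.44-fold, and *Rfc5* the lowest at -0.25 (-0.34 to -0.16). *Cdt1* at -0.23 (-0.33 to -0.13), *Rfc4* at -0.18 (-0.27 to -0.095), *Mcm6* at 0.15 (0.10 to 0.20) and *Tk1* at 0.15 (0.019 to 0.28) came next. *Mcm4* at 0.0022 (-0.031 to 0.036), *Mcm3* at -0.0044 (-0.048 to 0.039) and *Mcm2* at -0.0054 (-0.046 to 0.035) were the closest to equal. *Rrm2* was level between the genotypes in Ctrl, and *Mcm4*, which had been below 0 there, was level with TGFB1.

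**Figure D3:**
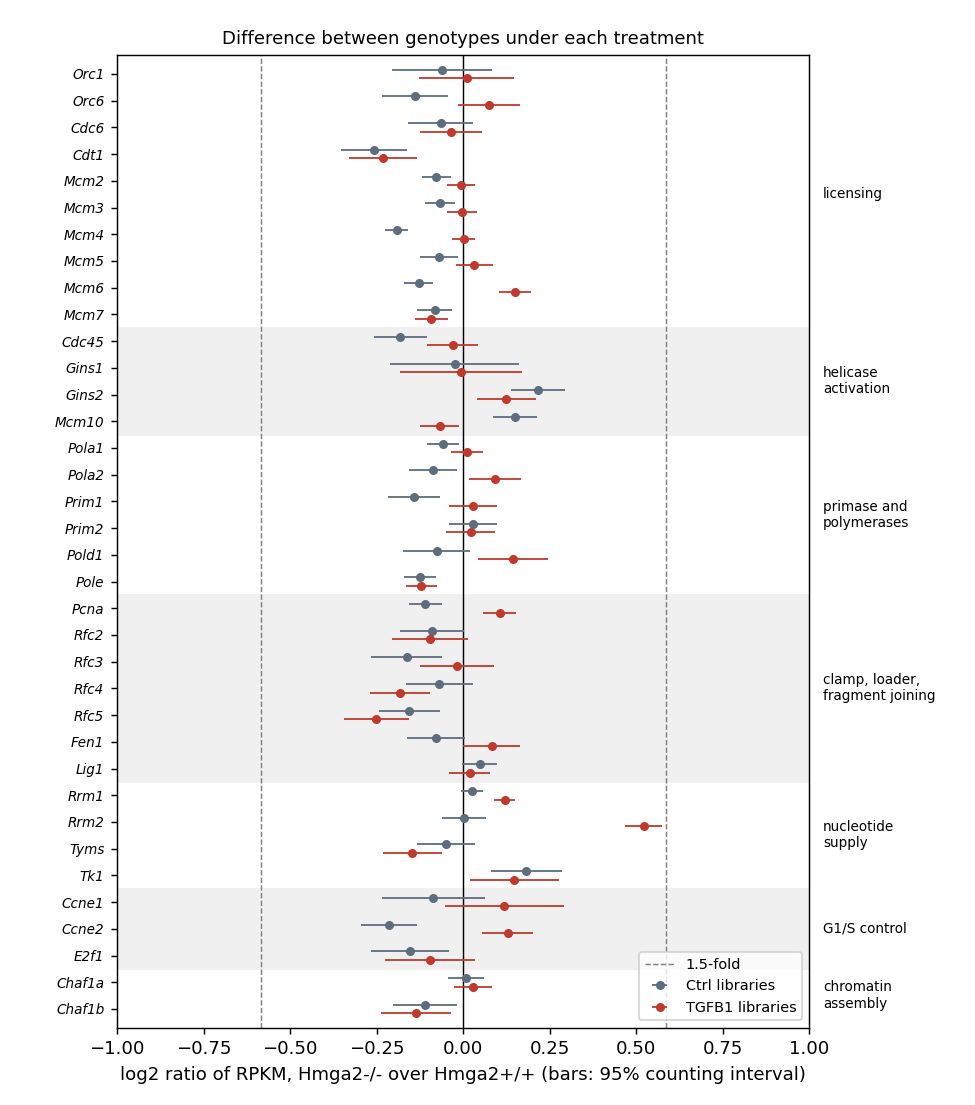
log2 ratio of RPKM, *Hmga2*-/- over *Hmga2*+/+, for each gene in the Ctrl (grey) and TGFB1 (red) libraries, with bars for the 95% counting interval and dashed lines at 1.5-fold. All points lie between the dashed lines, 28 of 36 Ctrl points are below 0, and *Rrm2* with TGFB1 is the farthest from 0.

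The responses of the genotypes were set side by side. Over the 36 genes the log2 changes in *Hmga2*+/+ and *Hmga2*-/- MEF, which share no library, had a Pearson correlation of 0.86 and a Spearman correlation of 0.92, as a description over genes that are not independent. The change was below 0 in both genotypes for 17 members, above 0 in both for 14, and of opposite sign for 5, which were *Mcm2*, *Mcm3*, *Pola1*, *Fen1* and *Pcna*. Of these 5, *Pcna* had intervals that excluded 0 in both genotypes, with the libraries as deposited. The split of signs shifts with the scaling, since *Mcm3* was at 0.0088 and 0.018 in rescaled libraries, above 0 in both genotypes. Neither the correlations nor the split were set beside the same over all genes. The median difference of the change, *Hmga2*-/- minus *Hmga2*+/+, was 0.066 for the members and 0.046 over all genes, and it was above 0 for 25 of 36 members (69.4%) and for 59.4% of all genes.

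*Rrm2* had the largest difference between the responses, at 0.52 (0.44 to 0.60) on the log2 scale. *Ccne2* at 0.34 (0.24 to 0.45), *Mcm6* at 0.28 (0.22 to 0.34) *Pold1* at 0.22 (0.083 to 0.36) and *Pcna* at 0.21 (0.15 to 0.28) followed, all with the higher change in *Hmga2*-/- MEF. With the libraries as deposited, *Mcm10* was the 1 member whose interval lay below 0, at -0.22 (-0.30 to -0.13). For 17 members the interval lay above 0 and for 18 it held 0, whereas of 10738 genes with reads in every library 25.4% had it above 0 and 15.3% below 0. With rescaled libraries the median difference was 0.012, and the interval lay above 0 for 9 and below 0 for 6 members, so the shared upward shift depends on the scaling. These rescaled intervals were not counted over all genes. *Tk1* at -0.035 (-0.20 to 0.13), *Lig1* at -0.029 (-0.11 to 0.048) and *Rfc2* at -0.0060 (-0.15 to 0.14) had intervals that held 0. The differences closest to 0, beside *Rfc2*, were those of *Pole* at 0.0029 (-0.061 to 0.067) and *Prim2* at -0.0070 (-0.10 to 0.091).

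Other genes of DNA replication also had few changes past 1.5-fold. Of 38 further genes, 0 were at least 1.5-fold lower and 1 (*Orc2*) was higher with TGFB1 in *Hmga2*+/+ MEF, beside 16.8% and 11.4% of all genes. In *Hmga2*-/- MEF 1 (*Pole2*) was lower and 1 (*Orc2*) was higher, beside 15.2% and 13.1% of all genes. The median log2 change of these 38 genes was -0.094 and 0.068. Over the 4 libraries 21 of 38 (55.3%) were within 1.25-fold, beside 29.9% of all genes. *Orc2*, a subunit of the origin recognition complex, had 13.4, 23.9, 13.7 and 25.4 RPKM, a log2 change of 0.84 and 0.89 (1.5-fold is 0.58). *Orc4*, another subunit, had 12.7, 18.5, 13.4 and 19.1 RPKM, with changes of 0.54 and 0.52. *Orc1* and *Orc6* had changes of 0.084 and 0.044 in *Hmga2*+/+ MEF, so the subunits of this complex did not move by 1 factor. *Pole2*, the second subunit of the leading strand polymerase, had 8.28, 6.46, 8.23 and 5.43 RPKM, with changes of -0.36 and -0.60. *Rpa3*, which binds single-stranded DNA, had 11.5, 7.91, 10.7 and 8.07 RPKM, with changes of -0.54 and -0.41. Between the genotypes, 1.64% of all genes were at least 1.5-fold lower and 2.37% higher in Ctrl, and 1.98% and 3.12% with TGFB1. Of the 38 genes 0 were past 1.5-fold under either treatment. The largest log2 ratios were -0.34 for *Dna2*, -0.32 for *Chek1* and -0.30 for *Recql4* in Ctrl, and 0.39 for *Pold4*, -0.25 for *Pole2* and -0.23 for *Timeless* with TGFB1.

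Regulators of the cell cycle included larger changes than the replication genes. Of 29 regulators, 6 were at least 1.5-fold lower and 4 at least 1.5-fold higher with TGFB1 in each genotype. Among all genes tested 16.8% were lower and 11.4% higher in *Hmga2*+/+ MEF, and 15.2% and 13.1% in *Hmga2*-/- MEF. Over the 4 libraries 8 of 29 regulators (27.6%) were within 1.25-fold, near the 29.9% of all genes. The 6 that fell in both genotypes were *Rbl2*, *Ccnd1*, *Cdkn1b*, *Cdkn1c*, *Cdkn2c* and *Cdkn2d*. *Cdkn1a*, *Cdkn2b* and *Myc* rose in both, *Cdk6* passed 1.5-fold in *Hmga2*+/+ MEF only and *E2f4* in *Hmga2*-/- MEF only, at 2.92-fold and 1.61-fold. The change of *E2f4* in *Hmga2*+/+ MEF was 1.48-fold and that of *Cdk6* in *Hmga2*-/- MEF was 1.30-fold. The difference of their responses was -1.17 (-1.35 to -0.98) for *Cdk6* and 0.11 (-0.039 to 0.27) for *E2f4*, on the log2 scale.

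Inhibitors of cyclin-dependent kinases moved in both directions. *Cdkn1a*, which encodes p21, had 6.28 and 12.4 RPKM in *Hmga2*+/+ Ctrl and TGFB1 and 8.63 and 20.7 RPKM in *Hmga2*-/- Ctrl and TGFB1, so it rose 1.98-fold and 2.39-fold. *Cdkn2b*, which encodes p15, had 14.4, 27.5, 13.6 and 29.0 RPKM and rose 1.92-fold and 2.13-fold. *Cdkn1c*, which encodes p57, had 27.4, 4.37, 20.4 and 2.88 RPKM and fell 6.27-fold and 7.10-fold. *Cdkn1b*, which encodes p27, had 27.7, 15.4, 24.99 and 14.7 RPKM and fell 1.80-fold and 1.70-fold. *Cdkn2c* and *Cdkn2d*, which encode inhibitors of CDK4 and CDK6, fell to log2 changes of -0.98 and -0.77 in *Hmga2*+/+ and of -0.91 and -1.01 in *Hmga2*-/- MEF. *Cdkn2a* was the most abundant at 160 to 204 RPKM, with changes of 0.35 and 0.12.

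*Myc*, a driver of growth and S phase entry, had 5.17 and 19.3 RPKM in *Hmga2*+/+ Ctrl and TGFB1 and 7.08 and 25.2 RPKM in *Hmga2*-/- Ctrl and TGFB1, and rose 3.73-fold and 3.56-fold. *Ccnd1*, the D-type cyclin that starts G1 progression, had 10.6, 6.89, 13.2 and 5.72 RPKM, and fell 1.54-fold and 2.31-fold. The pocket protein genes differed from each other: *Rb1* had changes of 0.16 and 0.33, *Rbl1* of 0.065 and 0.068, and *Rbl2* fell 1.55-fold and 1.83-fold. *Cdk2*, the kinase partner of cyclin E, was level at 25.2, 24.7, 24.4 and 23.9 RPKM.

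**Figure D4:**
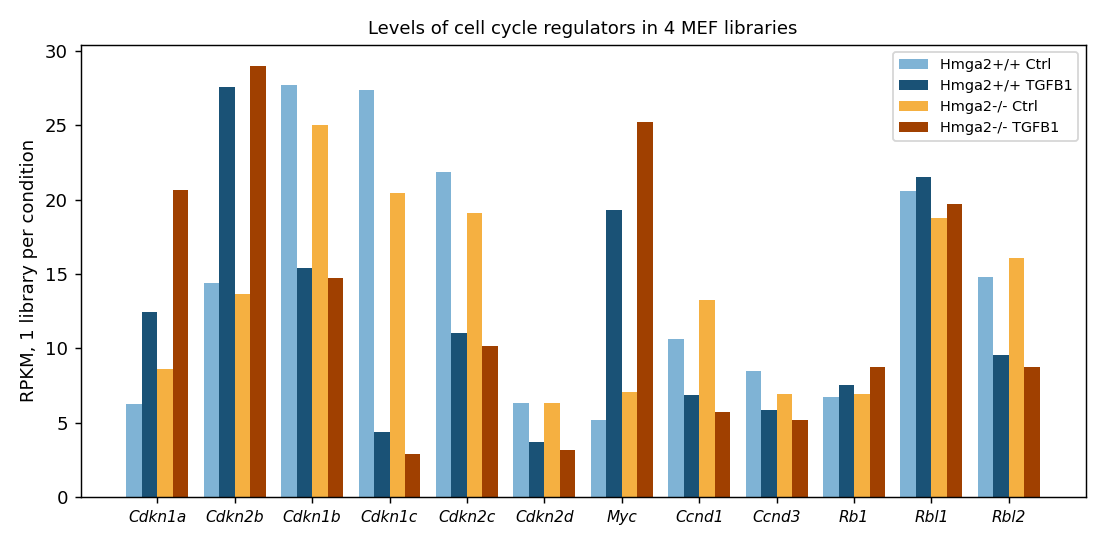
RPKM of 12 cell cycle regulators in the 4 MEF libraries, with 1 bar per library. *Cdkn1a*, *Cdkn2b* and *Myc* are higher and *Cdkn1b*, *Cdkn1c*, *Cdkn2c*, *Cdkn2d*, *Ccnd1* and *Rbl2* are lower in the TGFB1 libraries of both genotypes. *Rbl1* stays near its Ctrl level, and *Rb1* is 1.12-fold and 1.26-fold higher with TGFB1 in *Hmga2*+/+ and *Hmga2*-/- MEF.

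Between the genotypes, 1 regulator was at least 1.5-fold lower in *Hmga2*-/- Ctrl (*Ccnd2*) and 1 was higher (*Cdk6*). *Ccnd2*, another D-type cyclin, had 12.01 and 14.7 RPKM in *Hmga2*+/+ and 5.90 and 6.61 RPKM in *Hmga2*-/- Ctrl and TGFB1, with log2 ratios of -1.02 and -1.15. *Cdk6* had 0.844, 2.47, 1.45 and 1.89 RPKM. With TGFB1, *Cdkn1a* was 1.66-fold higher and *Cdkn1c* 1.52-fold lower in *Hmga2*-/- MEF. Among the 36 replication genes 0 reached 1.5-fold between the genotypes. Among all genes tested 1.64% were lower and 2.37% higher in *Hmga2*-/- Ctrl, and 1.98% and 3.12% with TGFB1. A count of 0 of 36 is close to these shares.

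Mitosis genes leaned lower with TGFB1. Of 22 genes, 20 were below 0 in *Hmga2*+/+ and 19 in *Hmga2*-/- MEF, with median log2 changes of -0.28 and -0.24. Among the 36 replication genes 22 (61.1%) and 17 (47.2%) were below 0, beside 54.1% and 49.1% of all genes. In rescaled libraries 19 and 17 of the 36 were below 0, while all genes and the mitosis genes were not recounted. *Ccnb2*, a mitotic cyclin, was the 1 gene at least 1.5-fold lower in *Hmga2*+/+ MEF, with 24.6, 13.5, 23.1 and 13.2 RPKM and changes of -0.86 and -0.81. In *Hmga2*-/- MEF 4 of 22 genes were lower, which were *Ccnb2*, *Cenpf* at -0.78, *Nusap1* at -0.75 and *Mki67* at -0.69. Not a single mitosis gene was at least 1.5-fold higher in either genotype. Among all genes tested 16.8% were lower and 11.4% higher in *Hmga2*+/+ MEF, and 15.2% and 13.1% in *Hmga2*-/- MEF. *Mki67*, the widely used proliferation marker, had 157, 122, 166 and 103 RPKM, and its change in *Hmga2*+/+ MEF was -0.36. Over the 4 libraries 10 of 22 mitosis genes (45.45%) were within 1.25-fold, beside 58.3% of the replication genes and 29.9% of all genes. Between the genotypes 0 of 22 were past 1.5-fold in Ctrl or TGFB1. Of all genes 1.64% were lower and 2.37% higher in Ctrl, and 1.98% and 3.12% with TGFB1. The median log2 ratios of the 22 genes were 0.016 and 0.011. The largest were -0.27 for *Aurkb*, -0.23 for *Bub1* and 0.22 for *Aurka* in Ctrl, and -0.33 for *Cenpf*, -0.24 for *Mki67* and 0.20 for *Plk1* with TGFB1.

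**Figure D5:**
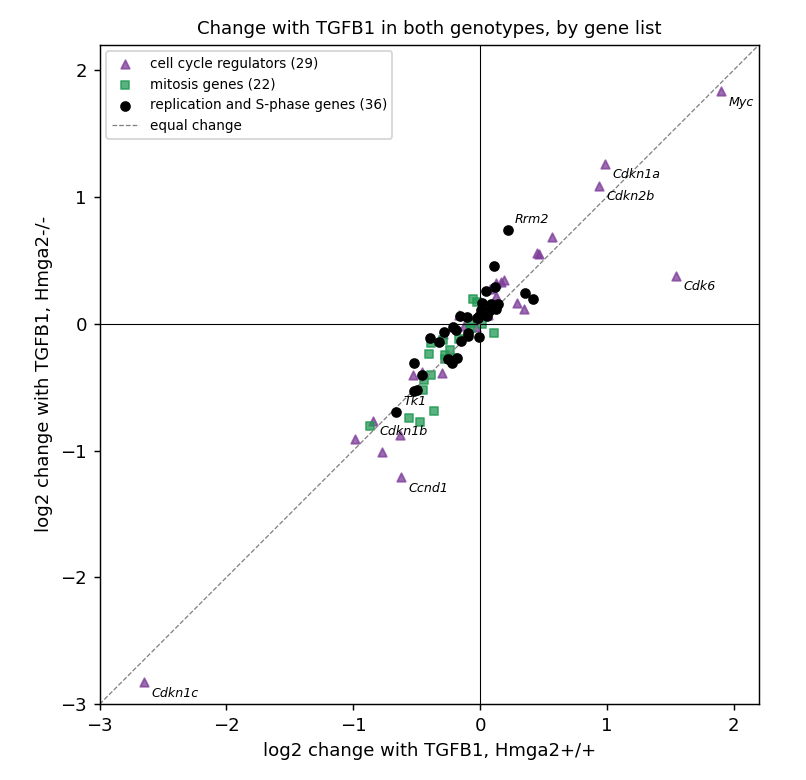
log2 change with TGFB1 in *Hmga2*+/+ (x axis) against *Hmga2*-/- MEF (y axis) for the 36 replication genes (black), 22 mitosis genes (green) and 29 regulators (purple), with a dashed line where both are equal. The replication genes sit around 0, mitosis genes mostly below 0 on both axes, and *Cdkn1c*, *Myc*, *Cdkn1a* and *Cdkn2b* are far out along the line.

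The values of some members depended on the transcript read. The 36 genes had 95 transcripts in the table, of which 5 were shorter than 300 bases, and 10 genes had a single transcript. For *Tk1* the 2 transcripts of at least 300 bases had log2 changes of -0.66 to -0.63 in *Hmga2*+/+ and -0.71 to -0.70 in *Hmga2*-/- MEF. For *Mcm10* the 6 transcripts ranged from 0.28 to 0.49 and from -0.028 to 0.33, and for *Rfc4* the 3 ranged from 0.19 to 0.35 and from -0.11 to 0.34. In *Hmga2*+/+ MEF the 5 transcripts of *Fen1* ranged from -0.47 to -0.023 and the 6 of *Pole* from -0.26 to 0.10, and in *Hmga2*-/- MEF from -0.028 to 0.089 and from -0.061 to 0.11. Reads on shared exons may be counted for several transcripts of a gene.

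An intron of *Mcm7* holds the hairpins of 3 miRNAs, which the table lists as transcripts of their own. Their mature RefSeq sequences are shown because the pair miR-93-5p and miR-106b-5p share the seed AAAGUGC, a seed known for targeting *Cdkn1a*, while miR-25-3p has another. Capitals mark the seed, bases 2 to 8.
miR-93-5p: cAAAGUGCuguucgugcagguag
miR-106b-5p: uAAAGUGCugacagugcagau
miR-25-3p: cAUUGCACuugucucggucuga

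The hairpins had few reads. *Mir93* (chr5:138165523-138165610, minus strand) had 4, 2, 6 and 6 reads, *Mir106b* (chr5:138165737-138165818) had 1, 3, 5 and 1, and *Mir25* (chr5:138165321-138165404) had 16, 22, 14 and 9. These counts are too low for a comparison, and reads of total RNA on a hairpin do not measure the mature miRNA.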

How the data were processed

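Total RNA of 4 MEF cultures was sequenced in strand-specific libraries with single-end reads. The deposited values are RPKM of 63759 UCSC transcripts, which the authors obtained with Trimmomatic for trimming, HISAT2 for mapping to mm10 (version 2.1.0 per the submitters' processing notes) and HOMER for counting. The header of the deposited table says exons were counted, whereas the methods say genes. The length column, in bases, was also used.

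Transcripts were named by at least 50% same-strand overlap with a GENCODE vM21 gene (57708 of 63759, 90.5%), and the longest gene body stood for each gene. Depth was found by searching for the number of mapped reads that turns low RPKM values into whole reads (100% of 1309 to 1329 values per library within 0.1 read). Transcripts with under 10 reads made up 42.2% to 43.4% of the table. These reads gave exact conditional binomial 95% intervals of ratios, and a Wald interval for the difference of 2 responses, which cover counting error only. As in the study's methods, 0 RPKM was set to 0.001 and 1.5-fold was the threshold. All genes tested are the 10744 protein-coding genes with at least 1 RPKM in 1 library. RPKM without replicates allows no count test, so no p-value was computed.

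The members and lists were chosen with earlier results of these data known. The text names all 36 members, with, per comparison, the 6 largest and 3 smallest log2 changes in full, and the 3 largest changes of each other list with a fixed set of regulators. *E2f4*, *Cdk2*, *Cdkn2a*, *Cdkn1b*, *Cdkn2c*, *Cdkn2d* and *Mki67* were named after their values were seen. *Ctgf* and *Acta2* were checks of treatment, and a further check is not reported here. *Ctgf* had 13.2, 173, 24.9 and 359 RPKM and *Acta2* had 15.9, 58.3, 48.2 and 165 RPKM, in the order of libraries used above.

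Promoter windows and miRNAs were those of RefSeq (GRCm38.p6), without windows for *Ccne2*, *Gins1*, *Gins2*, *Mcm4*, *Pole*, *Prim2* and *Rfc2*. Python 3.11.15, numpy 2.4.6, pandas 2.3.3, scipy 1.17.1 and matplotlib 3.10.9 were used, and the steps were tested on simulated data. Alternatives changed the value added to RPKM, the scaling, the transcript per gene, the filter and the fold threshold.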

Additional observations from a re-analysis of the deposited data

Results flagged for a closer look

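*Pcna* was singled out because its change with TGFB1 had opposite signs in the genotypes, with a difference of 0.214 on the log2 scale, *Hmga2*-/- minus *Hmga2*+/+. The log2 change was -0.15 (98.8 against 110 RPKM) in *Hmga2*+/+ and 0.059 (106 against 102 RPKM) in *Hmga2*-/- MEF, and with rescaled libraries it was -0.13 and 0.030, where the counting interval in *Hmga2*-/- MEF holds 0. With 1 library per condition the difference was not tested, and both changes are far short of 1.5-fold. No group had enough samples for a search for outlying libraries.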

How the results depend on the processing

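At a threshold of 2-fold, 0 members were lower with TGFB1 in *Hmga2*+/+ MEF, and 0 were lower and 0 higher in *Hmga2*-/- MEF. The share of all genes past 2-fold was not counted, so these counts have nothing to be set against. With the transcript of the highest mean RPKM in place of the longest gene body, 2 members were at least 1.5-fold lower in each genotype, since *Lig1* joined *Tk1*. In that setting the Ctrl ratio of *Pola1*, *Hmga2*-/- over *Hmga2*+/+, turned from -0.058 to 0.0059, because another transcript was read. The other counts and medians kept their value within the limits set, 81 of 86 alternatives, as did 704 of 720 alternatives of single members. Of the rest, 15 moved by more than their counting interval and 1 turned. Values near 0 could change sign and still count as kept. *Gins1* in *Hmga2*+/+ MEF did so, from 0.14 to -0.0072 with the transcript of the highest mean RPKM. Rescaling turned the sign of the median ratio of the TGFB1 libraries from 0.011 to -0.021. The limit for steady genes was chosen after seeing the data, and 33 members were steady at 1.5-fold, without a count over all genes. No paired analysis was possible because each condition has a single library, which also leaves no library that could be left out. Depth limits little here, since each member had at least 472 reads in every library, and the spread between cultures is unknown.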
